A study of Mus musculus with 6 samples.

Results

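The genes described here copy the genome and supply its building blocks. They are 46 named genes, listed by their function with no measured value in the rule, but chosen with earlier results of these data known. Of them, 12 license origins of replication, 25 work at the replication fork, 5 supply deoxynucleotides and 4 govern entry into S phase. One-colour Agilent arrays measured their RNA in mouse embryo heads, taken with the first branchial arch at embryonic day 9.5. The 3 wild type samples and the 3 Arid3b-null samples were each made from 4 pooled embryos. Arid3b encodes a protein that binds AT-rich DNA, and the null embryos are described in the labels only as mutant, with no strain, allele or litter given. Since nothing says that pools of a group came from separate litters, the p-values reflect only how far these pools vary. Of the 46 genes, 45 were among the 14906 genes tested, and Ccne2 was not, because its only probe was not well above background on any of the 6 arrays.

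Before S phase, the origin recognition complex, Cdc6 and Cdt1 load the Mcm2 to Mcm7 helicase onto DNA, and geminin blocks further loading once replication has begun. Cyclin E and its kinase partner then help to fire the origins, Cdc45 and the GINS complex turn the loaded helicase into a moving one, and polymerases, the PCNA clamp, its loader and the ligase copy both strands behind it. Ribonucleotide reductase, thymidylate synthase, thymidine kinase and dUTPase keep the deoxynucleotide pools filled. E2F transcription factors switch on many of these genes together, and in the head at this age the neural tube, the mesenchyme and the surface ectoderm all hold dividing cells.

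On each array 67.9% to 70.3% of the non-control spots stood well above background, and 0 were saturated. Values are log2 of the processed signal relative to the 75th percentile of the same array, and differences are null minus wild type with limma's standard error after the ± sign. There were n = 3 arrays in a group, which limits the precision. Group means are given ± SD. The adjusted p is the Benjamini-Hochberg value over all genes tested, and genes under 0.05 are said to have risen or fallen. The brightest of the 3 Arid3b probes read 1.98, 2.26 and 3.09 in wild type and 1.27, 1.06 and 1.44 in null heads, so the groups did not overlap (-1.19 ± 0.29, limma adjusted p = 0.0265). The other probes read -1.37 ± 0.30 and -2.33 ± 0.16, and all 3 stayed above background on every null array. Without null replicate 1, 2 or 3 the adjusted p of Arid3b was 0.0891, 0.0858 and 0.0696. Arrays of the same replicate number shared a slide, wild type always at the same place on it, so the place on the slide cannot be told apart from genotype.

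Of the 45 measured replication and nucleotide supply genes, 11 fell in null heads, 1 rose and 33 did not pass the test. The genes that fell were Tyms, Ccne1, Rrm2, Fen1, Tk1, Rfc3, Dut, Gins1, Pcna, Cdc6 and Orc2, and the gene that rose was Pold1. The lower calls make up 24.4% of the 45, where 11.2% of all genes tested were called lower, and the 1 higher call stands beside 12.3% of all genes. As the genes were chosen with earlier results known, the shares in this paragraph only describe them. The fall was at least 2-fold for 4 genes, Tyms, Ccne1, Rrm2 and Fen1. The median difference over the 45 genes was -0.31, against -0.04 over all genes tested, and was -0.39, -0.28 and -0.25 on the 3 slides. Other scalings gave medians of -0.33 (median centring), -0.23 (quantile normalization) and -0.39 (deposited table, 30 of the genes). Another background correction followed by quantile normalization gave -0.20. The median of all genes and the counts of genes below 0 or with groups apart were taken with the main scaling only. Below 0 lay 37 of the 45 differences (82.2%) and 53.2% of those of all genes. For 23 genes every null array was below every wild type array, a pattern seen in 21.8% of all genes, and for 2 genes every null array was above, seen in 20.6% of all genes. All 45 genes were well above background on all 6 arrays, so none of these values is only a bound.

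**Figure D1:**
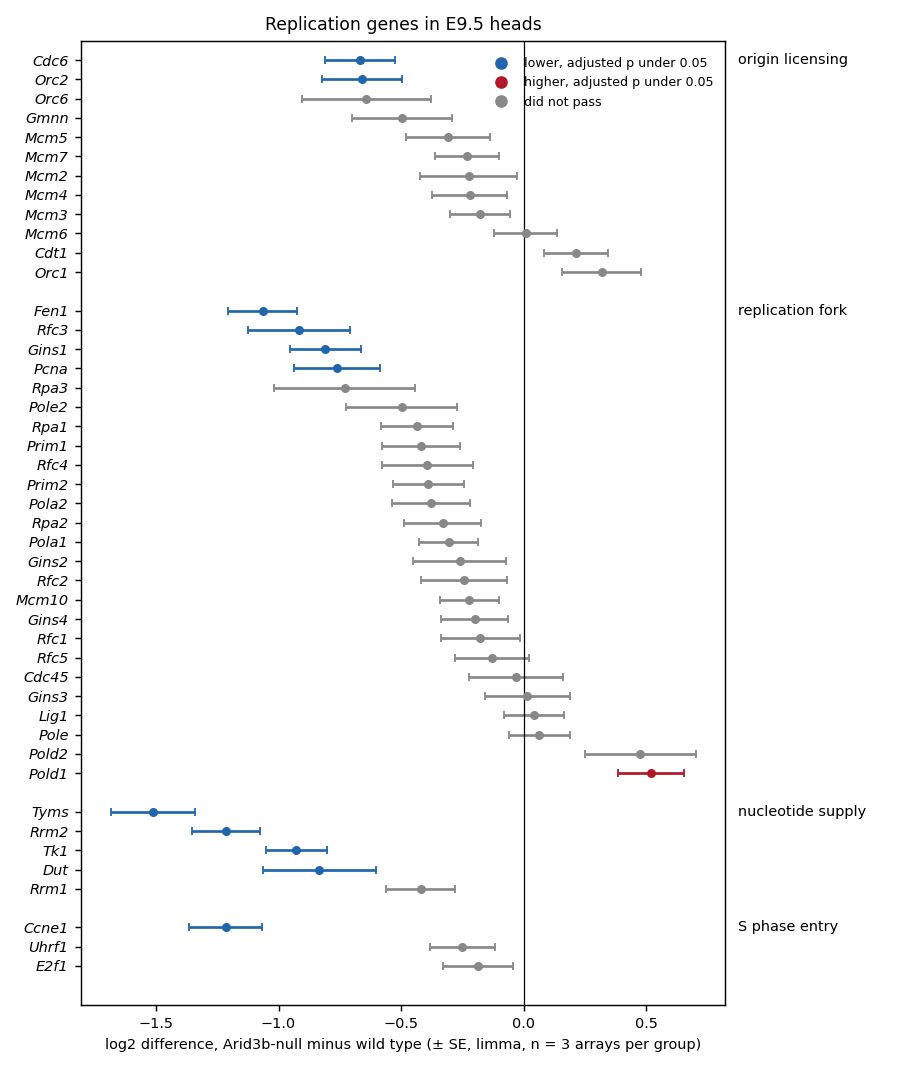
Log2 difference (null minus wild type) of each of the 45 measured genes, grouped by role, with bars for the limma standard error. Colours mark an adjusted p under 0.05 (blue lower, red higher), and genes that did not pass are grey. The 11 genes that fell are found in all 4 roles, and Tyms lies furthest from 0 at -1.51.

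With the slide as a block, 11 of the genes were called lower (11.8% of all genes were) and 0 higher (12.9% of all genes), Pold1 having an adjusted p of 0.0512. The number of lower calls among the 45 was 7, 6 and 18 without wild type replicate 1, 2 or 3, and 6, 6 and 7 without null replicate 1, 2 or 3. Over all genes, 3506 calls in either direction became 2145, 2209 and 5209 without wild type replicate 1, 2 or 3. They became 1462, 1834 and 1862 without null replicate 1, 2 or 3. The share of all genes called lower was not taken in these fits. The genes Tyms, Ccne1, Rrm2, Fen1, Tk1 and Gins1 kept their call in all 19 alternative settings run, those that leave out an array included.

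RefSeq promoter sequences of 250 bases before and 50 bases after the start (GRCm38.p6) were found for 37 of the 46 genes, among them 10 of the 11 that fell. The E2F-type letters TTCCCGC or TTGGCGC stood on either strand in 19 of the 37 (51.4%) and in 7.79% of the 27025 genes of the table. They were found in 2 of the 10 genes that fell, Cdc6 and Rfc3, and in 17 of the other 27. With the bases before the start alone these counts were 1 of 10 and 10 of 27. Only exact matches were counted, so a gene without a match may still hold a variant site. The letters CCAAT were found in 62.2% of the 37 against 41.1% of all genes, ACGTG in 37.8% against 21.8%, and TTTGAA in 13.5% against 20.2%. The 250 bases before the start are shown for 4 genes, with every match to these letters in capitals: Tyms, with the lowest difference, Rrm2, which fell on every slide alike, Cdc6, which fell and holds an E2F-type match, and Mcm6, which holds a pair of them and differed by only 0.01. They lie at chr5:30073626-30073875 on the minus strand, chr12:24708004-24708253 on the plus strand, chr11:98907901-98908150 on the plus strand and chr1:128359706-128359955 on the minus strand, and each reads 5′ to 3′ on the strand of its gene.
Tyms: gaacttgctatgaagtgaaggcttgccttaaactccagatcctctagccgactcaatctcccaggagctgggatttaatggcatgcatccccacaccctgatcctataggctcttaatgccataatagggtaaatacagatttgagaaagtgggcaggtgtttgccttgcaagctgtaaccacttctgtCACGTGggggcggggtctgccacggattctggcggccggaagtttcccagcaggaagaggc
Rrm2: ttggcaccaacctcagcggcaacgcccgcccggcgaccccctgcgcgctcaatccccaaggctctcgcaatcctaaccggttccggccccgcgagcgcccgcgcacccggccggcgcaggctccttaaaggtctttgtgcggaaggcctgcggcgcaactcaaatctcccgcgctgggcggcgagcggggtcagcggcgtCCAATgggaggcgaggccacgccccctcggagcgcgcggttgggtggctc
Cdc6: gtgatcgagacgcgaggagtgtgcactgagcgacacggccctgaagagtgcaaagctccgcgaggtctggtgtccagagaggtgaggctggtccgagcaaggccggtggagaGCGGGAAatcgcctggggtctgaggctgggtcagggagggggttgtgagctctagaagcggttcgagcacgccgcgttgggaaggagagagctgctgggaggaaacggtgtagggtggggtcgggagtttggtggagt
Mcm6: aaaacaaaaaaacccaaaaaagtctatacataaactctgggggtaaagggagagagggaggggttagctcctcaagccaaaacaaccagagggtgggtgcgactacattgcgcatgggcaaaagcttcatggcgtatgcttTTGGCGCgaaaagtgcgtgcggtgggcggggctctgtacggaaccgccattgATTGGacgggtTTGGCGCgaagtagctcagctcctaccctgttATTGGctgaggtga
The capitals in Tyms are ACGTG on both strands, overlapping. In Rrm2 they are CCAAT, in Cdc6 the reverse complement of TTCCCGC, and in Mcm6 TTGGCGC and the reverse complement of CCAAT. A match is a run of letters and not a measured binding site. GC content ran from 52.0% in Tyms to 72.4% in Rrm2.

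Nucleotide supply held the largest share of genes that fell among the 4 roles, 4 of 5 (80.0%, against 11.2% of all genes), with a median difference of -0.93. Of 16 other deoxynucleotide genes, described further on, 2 fell (12.5%) and 2 rose. Tyms encodes thymidylate synthase, which makes the thymine nucleotide from its uracil counterpart. Its signal was -1.50, -1.66 and -1.46 in wild type and -2.77, -3.32 and -3.06 in null heads, the farthest apart of any of the 45 genes. The means were -1.54 ± 0.10 and -3.05 ± 0.27, a difference of -1.51 ± 0.17 or 2.85-fold lower (limma adjusted p = 0.0025). Rrm2, the small subunit of ribonucleotide reductase, read 5.38, 5.16 and 5.10 in wild type against 4.05, 4.06 and 3.88 in null heads. It fell 2.32-fold (-1.21 ± 0.14, limma adjusted p = 0.00256), by nearly the same amount on each slide, with differences of -1.32, -1.10 and -1.22. Rrm1, the large subunit of the same enzyme, read 3.75, 3.65 and 3.89 against 3.33, 3.21 and 3.49. Its groups did not overlap either, but its difference of -0.42 ± 0.14 did not pass the test (limma adjusted p = 0.0703).

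Tk1, the thymidine kinase of the salvage route, read 3.24, 3.11 and 3.13 in wild type and 2.24, 2.14 and 2.30 in null heads. Its wild type and null values were both tightly grouped, and it fell 1.90-fold (-0.93 ± 0.12, limma adjusted p = 0.00388). Dut encodes dUTPase, which removes dUTP and leaves the substrate of thymidylate synthase. It read 3.06, 2.80 and 2.38 in wild type and 1.95, 2.20 and 1.59 in null heads, so the groups were apart but wide. It fell 1.78-fold (-0.83 ± 0.23, limma adjusted p = 0.0408). The call of Dut was lost without wild type replicate 1 or 2 (adjusted p 0.111 and 0.102) and without null replicate 1, 2 or 3 (0.119, 0.0569 and 0.128). With no filter on dim probes, where Ccne2 is tested too, 8 of the 46 genes were called lower, and the genes that lost this call were Dut, Orc2 and Pcna (adjusted p 0.0843, 0.0606 and 0.0515).

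**Figure D2:**
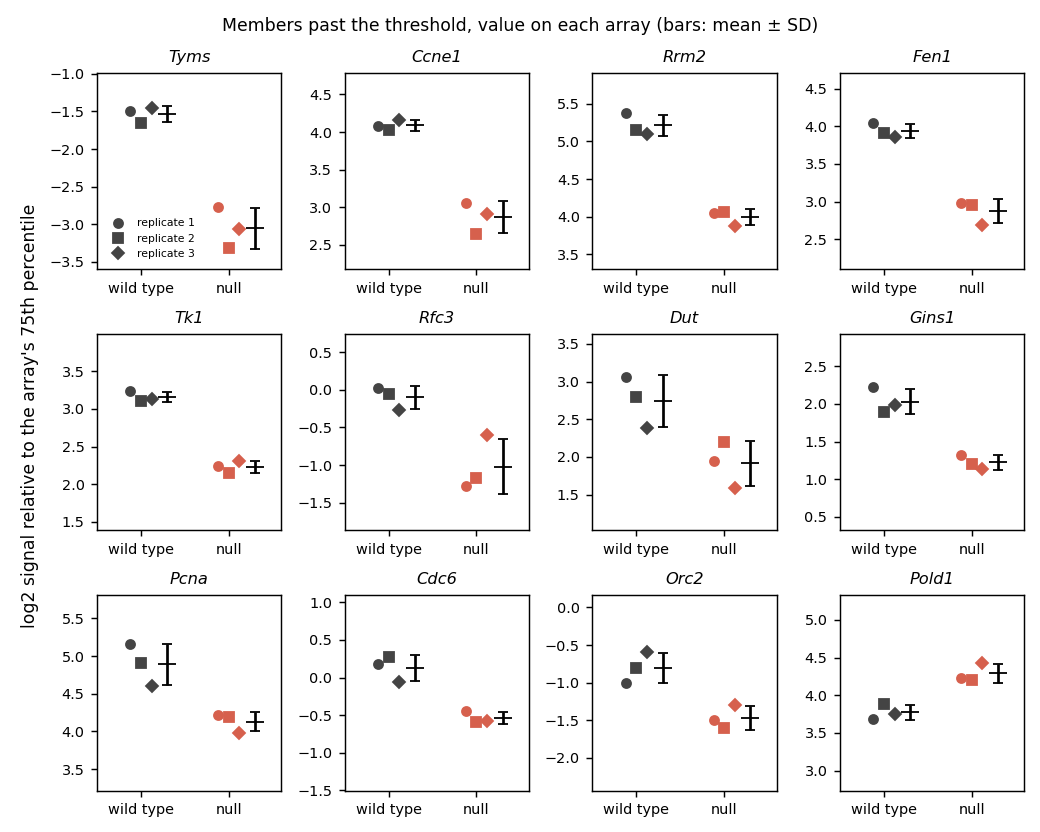
Log2 signal relative to the array's 75th percentile on each wild type and null array for the 12 genes that passed the test, with bars for the group mean ± SD. Each panel spans the same log2 range, centred on the mean of its gene. In the 11 genes that fell every null point lies below every wild type point, and in Pold1 every null point lies above.

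Among the genes of S phase entry, Ccne1 fell. It encodes cyclin E1, which activates Cdk2 at the start of S phase, and read 4.07, 4.03 and 4.16 in wild type and 3.05, 2.65 and 2.92 in null heads. The difference was -1.22 ± 0.15, or 2.32-fold lower (limma adjusted p = 0.00301), and its other probe read -1.05 ± 0.20. E2f1, a transcription factor that activates replication genes, differed by -0.19 ± 0.14 (limma adjusted p = 0.388). Uhrf1, which recruits the maintenance DNA methyltransferase to newly copied DNA, read 5.04, 4.83 and 4.83 against 4.76, 4.62 and 4.58. Its groups did not overlap, the difference of -0.25 ± 0.13 did not pass the test (limma adjusted p = 0.221), and its other probe differed the other way, by 0.23.

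At the fork, 4 of 25 genes fell (16.0%, against 11.2% of all genes) and 1 rose (12.3% of all genes did), with a median difference of -0.31. Fen1, the nuclease that trims the flaps of Okazaki fragments, had the lowest difference of this role. It read 4.04, 3.91 and 3.86 in wild type and 2.98, 2.95 and 2.69 in null heads, and fell 2.09-fold (-1.06 ± 0.14, limma adjusted p = 0.00374), with differences of -1.07, -0.95 and -1.17 on the slides. Pcna, the clamp that holds polymerases and Fen1 on DNA, read 5.15, 4.91 and 4.61 against 4.22, 4.19 and 3.98. It fell 1.70-fold (-0.76 ± 0.18, limma adjusted p = 0.0223). That call was lost without wild type replicate 1 or 2 (adjusted p 0.0620 and 0.0659) and without null replicate 1, 2 or 3 (0.0725, 0.0643 and 0.0821). Lig1, the ligase that seals the trimmed fragments, read 4.69, 4.72 and 4.71 against 4.66, 4.77 and 4.81. Its groups overlapped and it differed by 0.04 ± 0.12 (limma adjusted p = 0.832).

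Gins1, a subunit of the GINS complex of the active helicase, read 2.22, 1.89 and 1.98 in wild type and 1.33, 1.21 and 1.14 in null heads. It fell 1.75-fold (-0.81 ± 0.14, limma adjusted p = 0.00939). The other genes of helicase activation did not pass the test, namely Gins2 at -0.26 ± 0.19, Gins3 at 0.02 ± 0.17, Gins4 at -0.20 ± 0.14, Cdc45 at -0.03 ± 0.19 and Mcm10 at -0.22 ± 0.12. Of the 4 subunits of the GINS complex, 1 therefore fell and 3 lay between -0.26 and 0.02, and whether they differ from Gins1 was not tested.

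Rfc3, a subunit of the loader that opens the PCNA clamp, read 0.03, -0.06 and -0.27 in wild type and -1.28, -1.18 and -0.60 in null heads. Null replicate 3 was nearer to wild type than the other null arrays, and the differences on the slides were -1.31, -1.11 and -0.33. Rfc3 fell 1.89-fold (-0.92 ± 0.21, limma adjusted p = 0.0213), and this call was lost without wild type replicate 1 or 2 (adjusted p 0.0665 and 0.0611) and without null replicate 1 or 2 (0.0869 and 0.0760). The other subunits did not pass the test, with -0.18 ± 0.16 for Rfc1, -0.24 ± 0.18 for Rfc2, -0.39 ± 0.19 for Rfc4 and -0.13 ± 0.15 for Rfc5. Rfc4 passed without wild type replicate 3 (-0.54, adjusted p = 0.0491), and its other probe differed by -0.21.

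The subunits of replication protein A, which coats unwound DNA, were lower in mean but did not pass the test. Rpa1 read 4.71, 4.64 and 4.42 against 4.20, 4.26 and 3.99, groups that did not overlap (-0.44 ± 0.15, limma adjusted p = 0.0740). Rpa2 differed by -0.33 ± 0.16 and Rpa3 by -0.73 ± 0.29 (limma adjusted p = 0.171 and 0.113). Without wild type replicate 3, Rpa1 and Rpa3 passed at -0.52 and -1.02 (adjusted p 0.0332 and 0.0149).

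Of the 8 polymerase and primase genes 0 fell (11.2% of all genes did) and 1 rose (12.3% of all genes did). Pold1, the catalytic subunit of polymerase delta, read 3.68, 3.88 and 3.75 in wild type and 4.23, 4.21 and 4.43 in null heads. It rose 1.43-fold (0.52 ± 0.14, limma adjusted p = 0.0332), the slides giving 0.56, 0.32 and 0.68. With the slide as a block the adjusted p was 0.0512, and over all alternatives it ran from 0.0140 to 0.105. The call was lost without wild type replicate 1 or 2 (0.0977 and 0.0685) and without null replicate 1, 2 or 3 (0.105, 0.0798 and 0.104). Pold2, an accessory subunit, differed by 0.47 ± 0.23 (limma adjusted p = 0.174). Pole, the catalytic subunit of polymerase epsilon, differed by 0.06 ± 0.12, with 0.07 at its other probe, and its accessory subunit Pole2 by -0.50 ± 0.23 (limma adjusted p = 0.753 and 0.158).

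Of the 8 polymerase and primase genes, 4 had every null array below every wild type array, a pattern seen in 21.8% of all genes. These were the 4 genes of polymerase alpha and primase, which lay down the starting primers. None passed the test: Pola1 differed by -0.31 ± 0.12, Pola2 by -0.38 ± 0.16, Prim1 by -0.42 ± 0.16 and Prim2 by -0.39 ± 0.14, with limma adjusted p from 0.0958 for Prim2 to 0.134 for Pola2. Without wild type replicate 3, Prim1 passed at -0.52 and Pole2 at -0.73 (adjusted p 0.0372 and 0.0150).

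Of the 12 licensing genes, 2 fell (16.7%, against 11.2% of all genes) and 0 rose (12.3% of all genes did), with a median difference of -0.23. Cdc6, the ATPase that helps to load the helicase, read 0.18, 0.27 and -0.07 in wild type and -0.44, -0.59 and -0.58 in null heads. It fell 1.59-fold (-0.67 ± 0.14, limma adjusted p = 0.0177), and its other probe read -1.22 ± 0.24. The call of Cdc6 was lost without wild type replicate 1 or 2 (adjusted p 0.0565 and 0.0664) and without null replicate 1, 2 or 3 (0.0614, 0.0681 and 0.0643). Orc2, a subunit of the origin recognition complex, read -1.01, -0.81 and -0.60 in wild type and -1.50, -1.60 and -1.29 in null heads. It fell 1.58-fold (-0.66 ± 0.16, limma adjusted p = 0.0275), a call lost without wild type replicate 2 (adjusted p = 0.0762) and without null replicate 1, 2 or 3 (0.106, 0.0968 and 0.0504).

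Orc1, the subunit that is loaded first in each cycle, was higher in mean by 0.32 ± 0.16 and did not pass (limma adjusted p = 0.198). Orc6 read 3.40, 3.05 and 2.41 in wild type and 2.22, 2.55 and 2.16 in null heads. Wild type replicate 3 lay below null replicate 2, and the difference of -0.64 ± 0.26 did not pass (limma adjusted p = 0.123); without that wild type array it was -0.91 (adjusted p = 0.0137). Cdt1 differed by 0.21 ± 0.13, with every null array above every wild type array, and Gmnn, which encodes its inhibitor geminin, by -0.50 ± 0.21 (limma adjusted p = 0.276 and 0.127). Without wild type replicate 3, Gmnn passed at -0.64 (adjusted p = 0.0456).

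None of the 6 genes of the Mcm2 to Mcm7 helicase passed the test. Mcm6 read 5.82, 5.69 and 5.61 in wild type and 5.70, 5.79 and 5.65 in null heads, with overlapping groups and a difference of 0.01 ± 0.13 (limma adjusted p = 0.972). The others lay between -0.31 and -0.18: Mcm2 at -0.22 ± 0.20, Mcm3 at -0.18 ± 0.12, Mcm4 at -0.22 ± 0.15, Mcm5 at -0.31 ± 0.17 and Mcm7 at -0.23 ± 0.13. With quantile normalization these differences were smaller in size: -0.10 for Mcm2, -0.02 for Mcm3, -0.04 for Mcm4, -0.13 for Mcm5 and -0.05 for Mcm7. With the main scaling, every null array of Mcm3 and Mcm7 was below every wild type array, as in 21.8% of all genes. None of the 6 was called in any of the 18 or 19 alternative settings in which it was measured, and the sign of the Mcm6 difference turned in 5 of them.

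**Figure D3:**
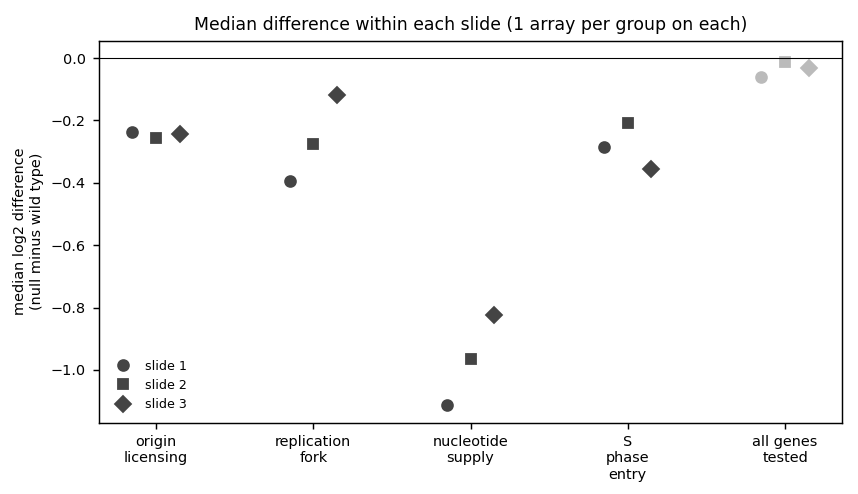
Median log2 difference (null minus wild type) of each role on each of the 3 slides, a slide holding 1 wild type and 1 null array. The nucleotide supply genes lie at -1.11, -0.96 and -0.82, below the other roles on every slide, and the fork genes lie nearest to 0 on slide 3 at -0.12.

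The roles kept their order only in part across slides. Licensing genes had medians of -0.24, -0.26 and -0.24, fork genes -0.39, -0.28 and -0.12, and the 3 measured S phase entry genes -0.28, -0.21 and -0.36. Whether roles differ from each other was not tested.

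Other genes of the same pathways were read from lists of named genes. Of 22 other fork and checkpoint genes, 3 fell (13.6%, near the 11.2% of all genes) and 2 rose (12.3% of all genes did), with a median of -0.25. Pold4, the smallest subunit of polymerase delta, rose 2.73-fold (1.45 ± 0.16, limma adjusted p = 0.00215). Pold3, of the same enzyme, differed by -0.39 ± 0.13 with every null array below every wild type array and did not pass (limma adjusted p = 0.0620). The checkpoint kinase Atr also rose (0.51 ± 0.14, limma adjusted p = 0.0361). Pold3 and Atr were chosen for naming after their values were seen. The nuclease and helicase Dna2, which works with Fen1, fell by 0.88 ± 0.14 on the log2 scale, Pole3 of polymerase epsilon by 0.68 ± 0.14 and Dscc1, part of an alternative clamp loader, by 0.71 ± 0.17 (limma adjusted p = 0.00662, 0.0143 and 0.0234). Of 13 other licensing and firing factors 1 fell (7.69%, against 11.2% of all genes) and 0 rose (12.3% of all genes did). The 1 that fell was Donson (-0.63 ± 0.13, limma adjusted p = 0.0175), and the median of the 13 was 0.08. Of 9 genes of chromatin assembly and maintenance methylation 4 fell (44.4%, against 11.2% of all genes), and the median of the 9 was -0.41. Those that fell were the histone chaperones Asf1b (-1.01 ± 0.12), Asf1a (-0.92 ± 0.16), Chaf1b (-0.67 ± 0.12) and Nasp (-0.45 ± 0.13), with limma adjusted p from 0.00301 to 0.0447.

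Of 16 other deoxynucleotide genes 2 fell and 2 rose, 12.5% each way and near the 11.2% and 12.3% of all genes. The nucleoside diphosphate kinase Nme1 fell by 0.89 ± 0.14 on the log2 scale (limma adjusted p = 0.00677). The mitochondrial folate enzymes Shmt2 and Mthfd2 rose by 1.12 ± 0.21 and 0.91 ± 0.24 (limma adjusted p = 0.0107 and 0.0321). Of 16 genes of purine and pyrimidine synthesis 2 fell, also 12.5%: Umps and Ctps of the pyrimidine route, by 0.63 ± 0.13 and 0.49 ± 0.13 (limma adjusted p = 0.0163 and 0.0378).

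Among the other regulators of the passage from G1 to S phase, 27 genes were measured. Of these, 8 fell (29.6%, against 11.2% of all genes) and 1 rose (12.3% of all genes did). Ccnd1, cyclin D1, which starts the inactivation of the retinoblastoma protein, fell by 1.20 ± 0.13 on the log2 scale. E2f2 fell by 1.03 ± 0.14, Tfdp1, the partner of E2F proteins in DNA binding, by 1.04 ± 0.15, and the repressor E2f7 by 0.69 ± 0.13 (limma adjusted p from 0.00219 to 0.0124 for these 4). The gene that rose was the cyclin-dependent kinase inhibitor Cdkn1a (1.21 ± 0.25, limma adjusted p = 0.0158), while another inhibitor of these kinases, Cdkn1c, fell (-0.76 ± 0.19, limma adjusted p = 0.0275); both were chosen for naming after their values were seen. Of 29 mitosis genes 0 fell (11.2% of all genes did) and 1 rose (12.3% of all genes did), with a median of -0.05. This 1 gene was the kinase Ttk (0.82 ± 0.23, limma adjusted p = 0.0434). Over the 6 lists other than mitosis, 19.4% of the 103 measured genes fell, against 11.2% of all genes. With an array left out, the genes named from these lists that kept their call in all 6 such fits were Pold4, Dna2, Asf1b, Asf1a, Nme1, Ccnd1, E2f2, Tfdp1 and E2f7. Chaf1b and Shmt2 lost it without null replicate 1, Cdkn1a without null replicate 2 or 3, and Pole3 without each null replicate in turn. Ttk lost its call without wild type replicate 1 or 2 or null replicate 1 or 3, and Cdkn1c without wild type replicate 2 or each null replicate in turn. Donson, Dscc1, Atr, Nasp, Mthfd2, Umps and Ctps lost theirs on leaving out each array in turn other than wild type replicate 3. The highest adjusted p among these fits was 0.153, for Ttk.

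**Figure D4:**
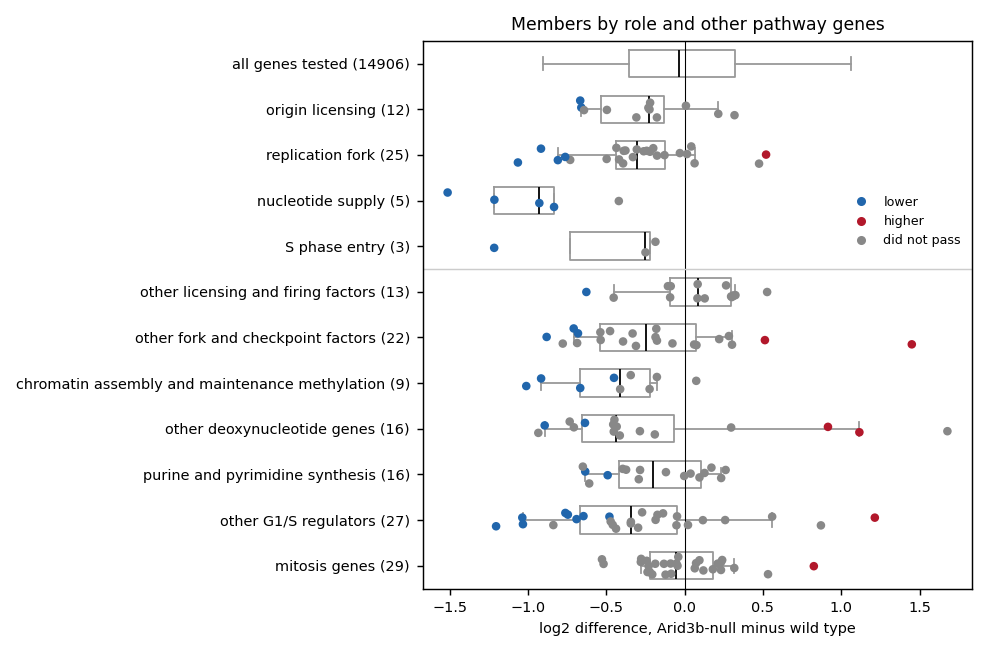
Log2 differences (null minus wild type) of the genes of each role and each further list, with 1 point per gene, boxes for the quartiles and median, whiskers from the 5th to the 95th percentile and all genes tested for comparison. The median is -0.93 for nucleotide supply, -0.05 for the mitosis genes and -0.04 for all genes.

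The heads also differed in markers of neural cells. All neuron, neural progenitor and cranial mesenchyme markers were well above background on every array. Of 8 neuron markers 4 fell, Elavl3, Nhlh2, Dcx and Elavl4, and the summed signal of the 8, relative to the 75th percentile on a linear scale, was 9.70 to 12.8 in wild type and 6.47 to 7.74 in null heads. Of 6 neural progenitor markers 3 fell, Fabp7, Nes and Sox1, while Sox2 differed by -0.12 and Pax6 by 0.23, and their sum was 21.9 to 25.5 against 13.0 to 13.9. Of 7 cranial mesenchyme markers Prrx1 fell (14.3%, near the 11.2% of all genes), and the sum was 25.8 to 28.2 against 24.3 to 28.1. Of 5 measured macrophage markers 3 fell (60.0%), namely Cx3cr1, C1qa and C1qb, with sums of 1.38 to 3.14 against 1.32 to 2.33. Of 7 primitive erythroid markers Klf1 fell (14.3%, also near the 11.2% of all genes), with sums of 632 to 854 against 487 to 1002. None of the surface ectoderm, endothelium or heart muscle markers passed the test, with 6, 6 and 5 measured; the macrophage marker Fcgr1 and the heart marker Myl7 were not measured. With an array left out in turn, Elavl3, Nhlh2, Fabp7 and Nes kept their call in all 6 fits. Elavl4 lost it in 4 of the 6, Cx3cr1 in 4, C1qa in 4, Dcx in 3, C1qb in 3, Sox1 in 2, Prrx1 in 2 and Klf1 in 2. The arrays concerned were wild type replicate 1 (for Elavl4, Cx3cr1, C1qa, Dcx and C1qb) and null replicates, and the highest adjusted p was 0.109, for Elavl4. The sums of neuron and neural progenitor markers were lower in null heads, as were the replication genes that fell. On a linear scale the brightest markers weigh most, and Nes was the brightest of the progenitor markers. Whether these cells have a part in the differences of the replication genes was not tested. In RNA from whole heads, fewer cells of a type and less RNA per cell cannot be told apart.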

How the data were processed

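Per the labels' protocols, Cy3-labelled RNA from 6 pooled head samples was put on Agilent arrays. The scanner output came from Feature Extraction 10.7.3.1 and gives each spot's intensity after background subtraction (the processed signal), raw median intensities and flags, per the file headers. The authors also deposited a table of log2 values with 24181 rows, 24158 of them matched to probes, with column medians of 6.76 to 6.77; the sources used here do not state its scaling.

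Each array's log2 processed signal was scaled by subtracting its 75th percentile over non-control spots. Control spots were dropped, as were 84 to 156 spots an array with an outlier flag. Of 39429 probes, 26424 were named with 1 symbol and 0 with several through the RefSeq accession (assembly GRCm38.p6, used for names and promoter sequences), and 13005 had none. A probe was kept if it was well above background on all 3 arrays of a group and had values on 5 or more arrays (26288 probes). The brightest kept probe on average represented each of 14906 genes. All 6 arrays were fitted with limma 3.58.1 (R 4.3.3) using lmFit and eBayes, with no covariate and a threshold of adjusted p under 0.05, and the steps were tested on simulated data. Lists are described by counts and medians, with no set test.

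The members and lists were chosen with earlier results of these data known. Every measured member is named; those that passed, and in each role the brightest and the one with the smallest p, have values per array, as do Arid3b and some members described for contrast. Of each further list other than markers, up to 4 genes with the smallest p among those that passed are named; 1 gene that the rule would name is not reported here. Scaling was varied by median centring, by quantile normalization and by use of the deposited table. Background and scaling were varied together by normexp on median signals (offset 50) followed by quantile normalization. Further alternatives changed the filter on dim probes, the choice of probe, the variance model (array weights, or robust with a trend), the slide as a block, the threshold (adjusted p under 0.01 or 0.10), the arrays used (each left out in turn) and, for promoters, the window (bases before the start alone).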

Additional observations from a re-analysis of the deposited data

How the results depend on the processing

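Every measured member kept the sign of its difference under the 19 alternatives, except Cdc45, Gins3, Lig1, Mcm6 and Rfc5, which did not pass the test under any of them. Several alternatives could not turn a sign. The thresholds, the robust variance with a trend, the slide block and the filters on dim probes left the members' differences unchanged. The choice of probe could not change the difference of a measured member with 1 probe. Of the 46 genes 41 had 1 probe, the unmeasured Ccne2 among them. The main counts of 11 lower members, 2 of them licensing genes and 4 fork genes, became 22, 4 and 12 with array weights and 6, 0 and 2 at an adjusted p under 0.01; 7 fork genes passed at 0.10, and 1 licensing gene passed with no filter on dim probes. Leaving out each array in turn gave 6 to 18 lower members, 0 to 4 licensing genes and 2 to 9 fork genes. The 1 higher member became 2 with normexp (with Cdt1) and with array weights (with Pold2), and 0 with median centring, with no filter, with the replicate block and at 0.01, and 0 to 1 without an array in turn. The median of -0.31 was -0.23 with quantile normalization, -0.39 in the deposited table, which holds 30 of the members, and -0.20 with normexp. Over all genes, 3506 calls in either direction became 2270 with no filter, 6685 with array weights, 1272 at 0.01 and 1462 to 5209 without an array in turn. The share of all genes called lower was not taken in these settings, so the members' counts there have no such share beside them. Arid3b kept a difference of -1.19 with no filter (adjusted p = 0.0599) and at 0.01, where it did not pass, and ran from -1.42 to -0.87 without an array in turn. With the promoter bases before the start alone, TTGGCGC was found in 10.8% of the 37 genes and either E2F-type run in 29.7%. The file headers place the arrays of a replicate number on the same slide, and the deviations of same-numbered arrays from their group means had r = -0.20, 0.15 and 0.42 across genes, while wild type replicate 1 and null replicate 2 had 0.49, so the numbers are not shown to pair the samples; with this replicate block 11 members were lower and 0 higher, and Pold1 was the only member whose call changed. Normexp was run on median signals and followed by quantile normalization, so it changed the scaling as well as the background. The cause of these changes was not tested, beyond the fewer arrays or stricter threshold that some settings bring, and 3 arrays per group limit the precision of all of them.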
